A study of Mus musculus with 6 samples.

Results

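The R-spondins are 4 secreted proteins, encoded by Rspo1, Rspo2, Rspo3 and Rspo4, and their receptors are encoded by Lgr4, Lgr5 and Lgr6. These 7 genes are all members of the 2 families and were found by their symbols among 37991 gene identifiers in the counts, with no threshold on any value. All 7 were present and all 7 were among the 15227 genes that passed the filter on low counts. They were measured by RNA sequencing in 3 male and 3 female libraries of Müllerian duct mesenchyme, the tissue that surrounds the embryonic duct from which the oviduct, uterus and upper vagina form. The question of the series is what anti-Müllerian hormone (AMH), made by the fetal testis, changes in this mesenchyme when the male duct regresses, with osterix (the product of Sp7) placed downstream of it.

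Both groups had the same genotype, Amhr2Cre/+ with R26R YFP/+, the same mixed background of C57BL/6J x 129/SvEv and the same age, embryonic day 14.5. They differed in sex. Cre was driven from the locus of Amhr2, the AMH receptor gene, so YFP marks any cell with present or past Cre activity and the sort rests on that locus. Each library came from YFP-positive cells pooled from 2 to 7 embryos, with at least 100 ng of total RNA. The spread between libraries therefore holds differences between pools and any between library preparations. Counts in genes ranged from 22511872 to 24749859 per library. Amhr2, the defining gene of the sorted cells, was present in every library, at 160.1, 461.9 and 394.5 CPM in males and 324.0, 784.1 and 482.8 CPM in females (CPM, counts scaled to the library total after TMM normalisation). All 8 markers listed for Müllerian duct mesenchyme were detected and summed to 1552 to 2288 CPM in males and 1902 to 2179 CPM in females, but 7 of the 8 had a lower mean in males. Emx2, Hoxa10, Hoxa11 and Osr1 did not overlap between the sexes. Their means were 45.2, 103.5, 23.8 and 1.997 CPM in males and 109.8, 231.9, 53.2 and 8.92 CPM in females. Pdgfra did not overlap either but ran the other way, with a mean of 836.5 CPM in males and 397.9 CPM in females. Of all genes tested, 13.7% did not overlap between the sexes. Sp7 and the sex-linked genes went with the labels in all 6 libraries, but the sex-linked genes varied widely within a sex. Xist stood at 4729, 277.5 and 1513 CPM in females, and Ddx3y at 159.1, 17.1 and 27.56 CPM in males. The libraries also differed within each sex. Counts outside annotated genes made up 18.2% and 17.5% of the reads counted in genes, outside genes or as ambiguous in the male and female replicate 1, and between 3.53% and 8.65% in the other 4 libraries.

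R-spondins amplify WNT signalling. A cell lowers its own response to WNT through the membrane E3 ligases ZNRF3 and RNF43, which mark Frizzled receptors for breakdown. An R-spondin that binds an LGR receptor together with one of these ligases takes the ligase off the cell surface, so that Frizzled accumulates and the cell responds more strongly to the WNT ligands it meets. LGR5 and LGR6 are best known as marks of epithelial stem cells, LGR4 is expressed more broadly, and RSPO1 is known in the gonad for its part in ovary development.

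The sequences upstream of 3 of these genes are shown because they stand for the gene that differed most between the sexes (Lgr6), the receptor gene beside it with the other high level in males (Lgr4) and the R-spondin gene with the highest mean level per kb of transcript in both sexes (Rspo1). Each is the 250 bases before the annotated gene start, read 5′ to 3′ on the strand of the gene, from RefSeq on the build GRCm38.p6. Capitals mark matches to the motifs searched.
Lgr6, chr1:135105277-135105526, minus strand: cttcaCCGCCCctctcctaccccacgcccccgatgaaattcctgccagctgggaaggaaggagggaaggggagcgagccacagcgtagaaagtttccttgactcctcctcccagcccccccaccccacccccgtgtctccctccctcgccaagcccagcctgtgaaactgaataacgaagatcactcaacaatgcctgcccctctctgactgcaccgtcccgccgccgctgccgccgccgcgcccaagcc
Lgr4, chr2:109917397-109917646, plus strand: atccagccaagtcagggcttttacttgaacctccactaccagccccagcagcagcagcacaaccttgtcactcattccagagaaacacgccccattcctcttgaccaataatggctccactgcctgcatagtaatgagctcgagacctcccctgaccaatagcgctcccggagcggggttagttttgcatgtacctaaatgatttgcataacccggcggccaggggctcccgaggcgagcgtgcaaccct
Rspo1, chr4:124986180-124986429, plus strand: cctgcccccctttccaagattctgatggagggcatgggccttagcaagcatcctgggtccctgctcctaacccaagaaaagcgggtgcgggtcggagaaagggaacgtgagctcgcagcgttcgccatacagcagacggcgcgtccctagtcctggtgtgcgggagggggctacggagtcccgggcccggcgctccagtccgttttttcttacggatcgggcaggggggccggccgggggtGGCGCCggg
The motifs were CTTTGAT and CTTTGAA, which TCF/LEF factors bind, GGCGCC, a GC-rich SMAD motif, and GGGCGG, the GC box of SP-family factors, each on both strands. None of the 3 windows held either TCF/LEF motif, which 3.21% and 4.46% of 32851 windows of this length hold. The Lgr6 window held 1 GC box, found in 32.7% of all windows, and the Rspo1 window held 1 GGCGCC, found in 9.59%. These matches describe letters only. The Lgr6, Lgr4 and Rspo1 windows had GC contents of 65.2%, 55.6% and 66.8%, against a median of 52.4% over all windows. Rspo4, near the detection limit, is not shown, and no sequence is shown for Rspo2, Rspo3 and Lgr5.

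Lgr6 was the 1 member of the 7 that differed between the sexes past the threshold. It was higher in male mesenchyme, about 5 times the female level. Lgr6 (ENSMUSG00000042793) encodes a receptor of the R-spondins. It stood at 50.7, 54.5 and 50.2 CPM in the male libraries, against 12.5, 7.92 and 10.3 CPM in the female libraries. Every male library was above every female library, and the spread within each sex was narrow.

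The mean of Lgr6 was 51.8 ± 2.34 CPM in males and 10.3 ± 2.31 CPM in females (SD, n = 3 each). Its log2 fold change, male over female, was 2.34 (SE 0.33, 95% interval 1.55 to 3.12, edgeR quasi-likelihood test, Benjamini-Hochberg adjusted p = 0.0291 over all genes tested). Of all genes tested, 1.23% passed this threshold, and 0.841% passed it in the direction of higher in male. The Lgr6 fold change rests on 3619 male and 760 female counts.

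The size of the Lgr6 difference held whichever library was left out, but the call did not. Leaving out 1 library at a time gave log2 fold changes of 2.19 to 2.50. The adjusted p was 0.0429 without male replicate 1. It was 0.109 and 0.197 without male replicate 2 or 3, and 0.0967, 0.0954 and 0.261 without female replicate 1, 2 or 3 (edgeR). The replicate 1 libraries, which had the most counts outside genes, gave a male to female ratio of 4.05 between them, and the log2 fold change without both was 2.51 (edgeR adjusted p = 0.0168).

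Lgr5 ran the other way and did not pass. It encodes the receptor best known from intestinal stem cells. Lgr5 (ENSMUSG00000020140) stood at 6.00, 1.43 and 2.06 CPM in the male libraries, against 12.7, 4.28 and 7.28 CPM in the female libraries. The sexes overlapped, since male replicate 1 lay above female replicate 2. Within each sex the replicate 1 library was the highest and the replicate 2 library the lowest. The log2 fold change was -1.35 (SE 0.68, 95% interval -2.97 to 0.27, edgeR adjusted p = 0.728). It was -2.21 without male replicate 1 and -0.86 without female replicate 1 (edgeR adjusted p = 0.192 and 1).

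Lgr4, the broadly expressed receptor, was not distinguishable between the sexes in the fit with sex as the only term. With the replicate number as an added term its edgeR adjusted p was 0.048, but the labels do not state that these numbers pair libraries. Lgr4 (ENSMUSG00000050199) stood at 59.5, 28.3 and 36.6 CPM in the male libraries, against 44.3, 19.6 and 27.0 CPM in the female libraries. The ranges overlapped, and the libraries of each sex fell in the same order, replicate 1 highest and replicate 2 lowest. The log2 fold change was 0.45 (SE 0.45, 95% interval -0.62 to 1.53, edgeR adjusted p = 1). It was 0.10 without male replicate 1 and 0.83 without female replicate 1. The interval includes no change and also a 2-fold higher level in males.

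**Figure D1:**
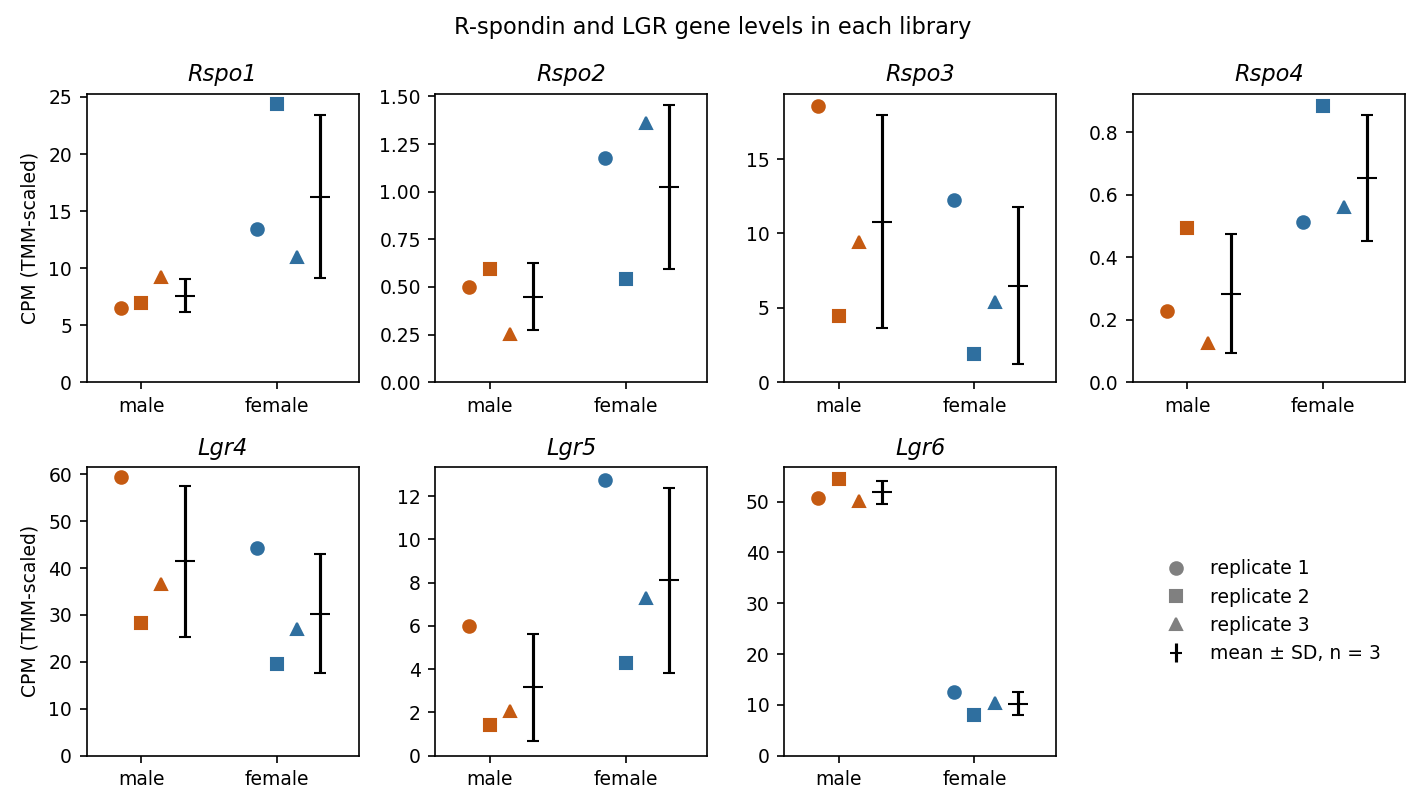
TMM-scaled CPM (y axis, from 0, each gene on its own scale) of the 7 genes in male and female libraries, with 1 symbol per replicate number and the mean ± SD of 3 libraries beside them. Lgr6 lies between 50.2 and 54.5 CPM in males and between 7.92 and 12.5 CPM in females, while Lgr4, Lgr5, Rspo2 and Rspo3 overlap between the sexes.

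The members were also read after each library's trend with transcript GC content and length had been taken out. The transcripts of Rspo3, Lgr5 and Lgr4 have 44.1%, 44.7% and 46.3% GC, and those of Lgr6 and Rspo1 have 52.6% and 59.7%. After the correction Lgr4 stood at 42.0, 41.8 and 43.0 CPM in males and at 30.9, 26.2 and 23.7 CPM in females. Lgr5 stood at 3.88, 2.32 and 2.45 CPM in males and at 8.12, 6.16 and 6.40 CPM in females. For both genes the sexes then no longer overlapped.

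The corrected Lgr4 log2 fold change was 0.65 (SE 0.18, 95% interval 0.23 to 1.07, edgeR adjusted p = 0.0944). That of Lgr5 was -1.24 (SE 0.29, 95% interval -1.94 to -0.55, edgeR adjusted p = 0.0602), and neither passed. Lgr6 kept its size at 2.40 (SE 0.21, 95% interval 1.91 to 2.90, edgeR adjusted p = 0.00176). With this correction 5.94% of all genes tested passed, so a call is less unusual there. No R-spondin passed with it. The corrected log2 fold changes were -1.28 for Rspo1, -1.07 for Rspo2, 0.88 for Rspo3 and -1.41 for Rspo4 (edgeR adjusted p = 0.148, 0.395, 0.477 and 0.238).

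The balance of the 3 receptors within each library is given as a description, with no test. Levels of different genes were compared as CPM per kb of the longest reference transcript. In males the order was Lgr4 at 8.20 ± 3.19, Lgr6 at 7.76 ± 0.351 and Lgr5 at 0.661 ± 0.517 CPM per kb (SD, n = 3). Lgr4 and Lgr6 did not differ beyond their spread. In females the order was Lgr4 at 5.99 ± 2.50, Lgr5 at 1.69 ± 0.896 and Lgr6 at 1.54 ± 0.346 CPM per kb (SD, n = 3), and Lgr5 and Lgr6 did not differ beyond their spread. With the median transcript length of each gene in place of the longest, Lgr6 came first in males at 18.4 CPM per kb, above Lgr4 at 14.5, and in females Lgr6 at 3.64 came above Lgr5 at 3.14.

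Within a library, the Lgr6 level per kb was 6.07, 27.3 and 17.4 times that of Lgr5 in the male libraries, against 0.706, 1.33 and 1.02 times in the female libraries. Lgr6 exceeded Lgr5 several times over in each male library, while the 2 receptor levels were close to each other in each female library. As a share of the 3 receptors per kb, Lgr6 made up 36.9%, 58.1% and 49.5% in males and 14.1%, 19.9% and 18.4% in females. Lgr5 made up 6.08%, 2.13% and 2.84% in males and 20.02%, 15.01% and 18.1% in females. The summed receptor level was 20.6, 14.1 and 15.2 CPM per kb in males and 13.3, 5.95 and 8.41 CPM per kb in females, and these values also follow the replicate number.

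**Figure D2:**
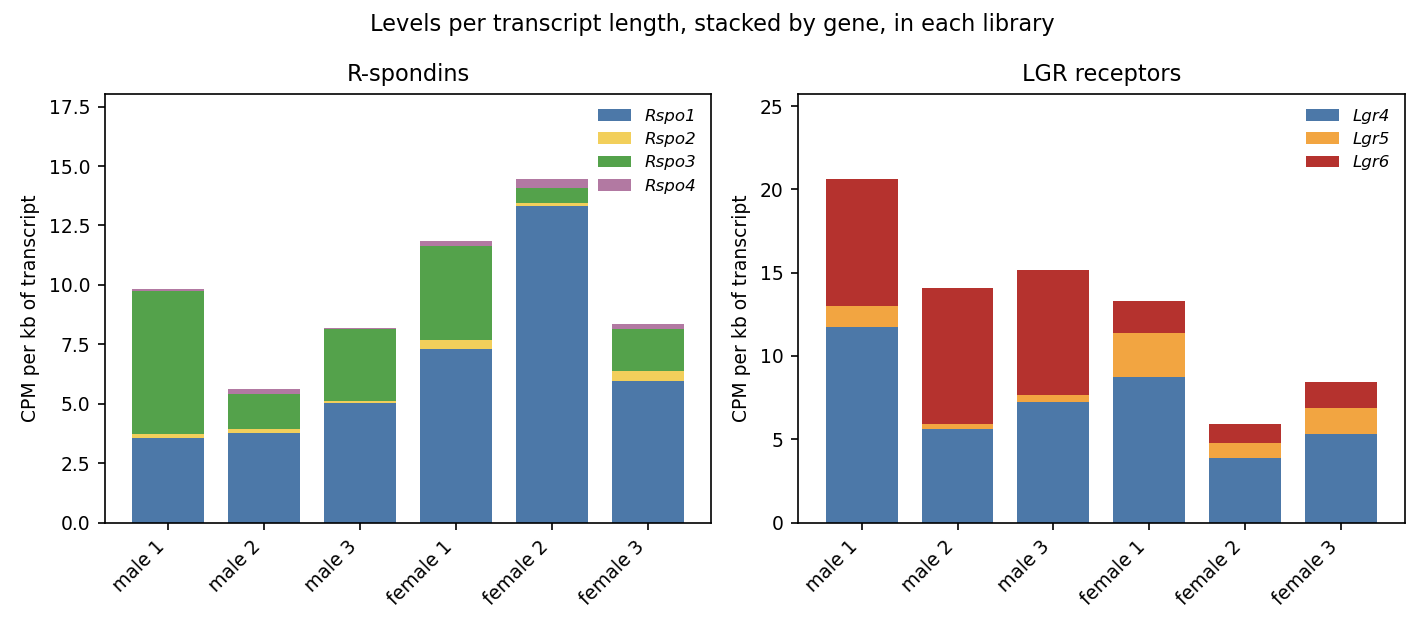
CPM per kb of the longest reference transcript (y axis, from 0), stacked by gene, for the R-spondins (left) and the LGR receptors (right) in each of the 3 male and 3 female libraries. Lgr6 makes up 36.9% to 58.1% of the receptor stack in males and 14.1% to 19.9% in females, and Rspo1 with Rspo3 make up most of every R-spondin stack.

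Among the ligands, none of the 4 R-spondin genes passed in edgeR. At an unadjusted p under 0.05 there was 1, Rspo1, where 9.18% of all genes tested reached that level, and DESeq2 called 0, where it called 5.06% of all genes. Their median log2 fold change was -1.15, against -0.01 over all genes tested, with 3 negative values and 1 positive. Rspo2 and Rspo4 held very few counts, and Rspo4 passed the filter on low counts through the female libraries, where it was higher.

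Rspo1, the R-spondin known from the ovary, had lower values in male mesenchyme without passing. Rspo1 (ENSMUSG00000028871) stood at 6.54, 6.92 and 9.23 CPM in the male libraries, against 13.4, 24.4 and 10.96 CPM in the female libraries. The sexes did not overlap, with female replicate 2 far above the other 2 female libraries. The log2 fold change was -1.10 (SE 0.42, 95% interval -2.10 to -0.11, unadjusted p = 0.0346, edgeR adjusted p = 0.455).

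Of the 7 genes, 3 had male and female libraries that did not overlap, namely Rspo1, Rspo4 and Lgr6, while 13.7% of all genes tested showed this. Rspo4 passed the filter on low counts through its female libraries, at 14, 18 and 14 counts, against 6, 10 and 3 in males. Its place among the 3 is therefore shaped by the filter and is not counted as a difference. After the GC content and length trend was removed there were 5, with Lgr4 and Lgr5 added, against 22.8% of all genes tested.

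Rspo3 had the opposite sign to the other ligands. It encodes the R-spondin known for its part in blood vessel and placenta development. Rspo3 (ENSMUSG00000019880) stood at 18.6, 4.45 and 9.40 CPM in the male libraries, against 12.2, 1.87 and 5.401 CPM in the female libraries. The spread within a sex exceeded the difference between the sexes, and in both sexes replicate 1 was highest and replicate 2 lowest, as for Lgr4. The log2 fold change was 0.73 (SE 0.78, 95% interval -1.14 to 2.60, edgeR adjusted p = 1). It was 0.09 without male replicate 1 and 1.57 without female replicate 1.

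Rspo2 and Rspo4 were close to the detection limit. Rspo2 (ENSMUSG00000051920), known for limb and lung development, held 13, 12 and 6 counts in the male libraries and 32, 11 and 34 counts in the female libraries. The sexes overlapped, and the log2 fold change was -1.20 (SE 0.55, 95% interval -2.50 to 0.10, edgeR adjusted p = 0.626). Rspo4 (ENSMUSG00000032852), known for nail formation, held 6, 10 and 3 counts in the male libraries and 14, 18 and 14 counts in the female libraries. Its log2 fold change was -1.20 (SE 0.60, 95% interval -2.63 to 0.22, edgeR adjusted p = 0.714), and it was -1.84 without male replicate 2 and -0.82 without male replicate 3. At these counts, differences of the size measured could not be told from the spread.

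Per kb of transcript, Rspo1 had the highest mean among the ligands in both sexes. It stood at 4.12 ± 0.793 CPM per kb in males and 8.86 ± 3.90 CPM per kb in females (SD, n = 3 each). Rspo3 followed at 3.50 ± 2.32 in males and 2.11 ± 1.71 CPM per kb in females. In males Rspo1 and Rspo3 did not differ beyond their spread. Rspo2 at 0.134 and Rspo4 at 0.119 CPM per kb in males, and at 0.307 and 0.275 CPM per kb in females, could not be ordered.

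Rspo1 made up 36.3%, 67.4% and 61.3% of the summed R-spondin level per kb in the male libraries and 61.7%, 92.1% and 71.4% in the female libraries. Rspo3 made up 61.2%, 25.7% and 37.1% in males and 33.5%, 4.195% and 20.9% in females. Rspo3 exceeded Rspo1 in male replicate 1 alone of the 6 libraries. The shares overlapped between the sexes.

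**Figure D3:**
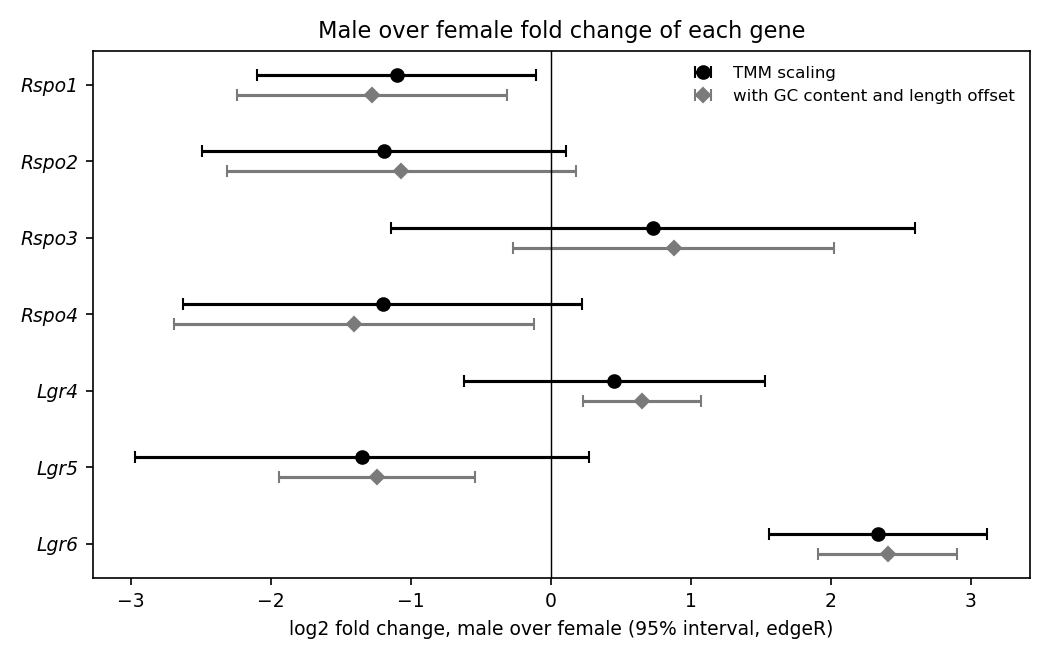
Log2 fold change, male over female, of each of the 7 genes (x axis) with its 95% interval from edgeR, with TMM scaling (circles) and with the GC content and length offset (diamonds). Lgr6 lies at 2.34 and 2.40 with both intervals above 0, and the intervals of Lgr4, Lgr5 and Rspo4 go from crossing 0 to lying on 1 side of it.

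In bulk RNA, fewer cells of a type and less RNA per cell cannot be told apart, and the sort could hold other cells. Several marker sums differed between the sexes alongside these genes. Of 7 Sertoli cell markers, 6 had a higher mean in males, and their summed level was 58.8 to 98.3 CPM in males and 11.1 to 17.1 CPM in females. Sox9 was the largest part, at 43.8, 32.5 and 59.3 CPM in males and 7.90, 6.79 and 8.52 CPM in females. Cst8 had a lower mean in males. Endothelial markers summed to 141.0 to 328 CPM in males and 47.3 to 93.4 CPM in females, with 4 of 6 higher in males. Nearly all of that sum was Kdr, at 319, 133 and 170.8 CPM in males and 86.1, 40.4 and 72.1 CPM in females, while Pecam1 and Cldn5 had lower means in males. Neuron and Schwann cell markers summed to 67.3 to 76.3 CPM in males and 15.2 to 29.8 CPM in females, with 4 of 6 higher in males and Stmn2 as the main contributor in males.

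In the direction of Rspo1 and Lgr5, pregranulosa markers of the fetal ovary summed to 15.3 to 43.1 CPM in males and 74.1 to 111 CPM in females, with 5 of 6 lower in males. Runx1 made up most of that sum, at 30.7, 8.35 and 18.9 CPM in males and 87.6, 40.9 and 62.9 CPM in females. Bmp2 had a higher mean in males. Kidney progenitor and stroma markers summed to 56.8 to 99.9 CPM in males and 119 to 200.4 CPM in females, with 3 of 5 lower in males. Nearly all of that sum was Sall1, at 96.0, 54.7 and 80.7 CPM in males and 176.5, 116.4 and 197.9 CPM in females, while Cited1 and Foxd1 had higher means in males. No marker of these 5 lists was at 0 in all libraries. The sums of the other marker lists overlapped between the sexes. Of the 8 duct epithelium markers, 6 had a lower mean in males. Cdh1 and Wnt7a had higher means in males, at 1.237 and 1.83 CPM, against 1.086 and 1.185 CPM in females. Epcam, an epithelial marker, did not overlap, at 2.52, 2.13 and 3.08 CPM in males and 10.1, 15.5 and 15.4 CPM in females, while Krt8 and Krt18, which made up most of that sum, did. The part of any of these cells in the R-spondin and LGR values was not tested.

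Reads of a gene and of an overlapping gene on the opposite strand cannot be told apart with this kit, which does not mark strand. Rspo1, Rspo4 and Lgr5 overlap Gm12930, Rspo4os and A930009A15Rik on the opposite strand. These 3 held 0, 2 and 1 counts over the male libraries and 3, 9 and 2 counts over the female libraries. Rspo3 overlaps 2 reference genes that are absent from the counts, Gm20276 on the same strand and Gm48159 on the opposite strand. Their part in the Rspo3 values was not tested. Lgr6, Lgr4 and Rspo2 overlap no other gene of the reference.

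The genes whose profile over the 6 libraries was most like that of a member were taken by Pearson's r of log2 CPM, among 9585 or 9586 candidate genes off the sex chromosomes with a mean of at least 10 CPM, and are given as a description. With only 6 libraries high values are common, and for Lgr6 104 candidates exceeded an r of 0.95. Nearest to Lgr6 were Gmip, Ndufb2 and Npc1 (r = 0.999, 0.998 and 0.996), whose log2 fold changes of 0.54, 0.38 and 0.62 were far smaller. Nearest to Lgr5 were Cpeb2, Mms22l and Dubr (r = 0.999, 0.996 and 0.996), and nearest to Lgr4 were Vldlr, Slc35d1 and Filip1l (r = 0.996, 0.993 and 0.9898). Nearest to Rspo3 were Sfi1, Dmpk and Mtus1 (r = 0.998, 0.995 and 0.988), and nearest to Rspo1 were Lsm5, Gmnn and Nap1l4 (r = 0.992, 0.988 and 0.985). Among those nearest to the low-count Rspo2 were Flrt1 and Sorl1 (r = 0.985 and 0.966), and nearest to Rspo4 were Masp1, Sft2d2 and Wdr90 (r = 0.985, 0.982 and 0.974).

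The ligase genes on which R-spondins act both had lower values in males, and neither passed in edgeR, at an unadjusted p under 0.05 or in DESeq2. Znrf3 stood at 30.6, 12.4 and 16.9 CPM in the male libraries, against 57.9, 19.6 and 38.2 CPM in the female libraries. The sexes overlapped, and the log2 fold change was -0.95 (SE 0.53, edgeR adjusted p = 0.823). Rnf43 stood at 14.8, 15.2 and 21.3 CPM in males, against 21.4, 23.6 and 28.4 CPM in females. Its libraries did not overlap, by a narrow margin, and the log2 fold change was -0.52 (SE 0.33, edgeR adjusted p = 0.917). Both genes are themselves targets of beta-catenin in other tissues.

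WNT-beta-catenin response genes moved in both directions. Of 12 tested, Dkk1 and Cd44 rose, Nkd2 fell and 9 did not pass (edgeR), with a median log2 fold change of 0.27. Over all genes tested, 1.23% passed. Nkd2, a feedback inhibitor of the pathway, averaged 36.6 ± 5.63 CPM in males and 316.7 ± 74.7 CPM in females. Cd44, a hyaluronan receptor gene, averaged 11.4 ± 2.02 CPM in males and 1.91 ± 0.479 CPM in females (SD, n = 3 each). The log2 fold changes were -3.11 for Nkd2 and 2.58 for Cd44 (edgeR adjusted p = 0.0190 and 0.0331). Nkd2 kept its call in edgeR without male replicate 1 (adjusted p = 0.0305) and missed it when any of the other 5 libraries was left out (0.0666 to 0.203), while Cd44 missed it without any 1 library (0.0530 to 0.281). Of the 12, 6 had male and female libraries that did not overlap, against 13.7% of all genes tested. Axin2 and Apcdd1, among these 6, were chosen after their values were seen. Axin2, whose product limits beta-catenin, stood at 126.2, 115.3 and 124.3 CPM in males, against 256.5, 254.4 and 263.1 CPM in females (log2 ratio -1.08 with an SE of 0.28, and an edgeR adjusted p of 0.176). Apcdd1, a membrane inhibitor of WNT, had 276.1, 426.3 and 477.5 CPM in males, against 618.7, 983.0 and 939.3 CPM in females (log2 ratio -1.11 with an SE of 0.39, and an edgeR adjusted p of 0.373).

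Secreted WNT antagonists held the most calls of the pathway lists. Of 10 tested, Wif1, Dkk1 and Draxin rose, Frzb fell and 6 did not pass (edgeR), with a median log2 fold change of 0.43. Over all genes tested, 1.23% passed, and Dkk1 is also counted among the response genes. Wif1, at 6, 7 and 11 counts in females, passed the filter on low counts through the male libraries, where it was higher. Wif1, which binds WNT ligands, had a log2 fold change of 8.03, and Dkk1, which binds the LRP co-receptors, had 4.16 (edgeR adjusted p = 0.00805 and 0.0148). Draxin and Frzb had 2.87 and -2.02 (edgeR adjusted p = 0.0201 and 0.0478). Wif1 averaged 88.8 ± 14.98 CPM in males and 0.335 ± 0.110 CPM in females (SD, n = 3 each). Wif1 missed the threshold without male replicate 3 or female replicate 3 (edgeR adjusted p = 0.0911 and 0.164). Dkk1 and Draxin kept it without male replicate 1 (0.0122 and 0.0226) and missed it without any other single library (0.0605 to 0.192 for Dkk1 and 0.0712 to 0.220 for Draxin), and Frzb missed it without any 1 library (0.0665 to 0.316). With all 6 libraries Frzb also missed it with no scaling beyond the library total (0.0613) and with no filter beyond 1 count (0.0712).

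No tested WNT ligand passed in edgeR with TMM scaling, of 12, although 4 had an unadjusted p under 0.05, against 9.18% of all genes tested. DESeq2 called 3 of the 12, against 5.06% of all genes. With the GC content and length offset edgeR called 4, against 5.94% of all genes tested. Wnt10a and Wnt10b passed the filter on low counts only through the sex in which they were higher. Wnt10a held 2, 9 and 6 counts in males and 27, 45 and 44 in females, and Wnt10b held 55, 24 and 32 against 5, 7 and 3. These counts of ligands are therefore not read as an excess over the shares of all genes. Wnt10b, the ligand gene with the smallest p, averaged 1.55 ± 0.489 CPM in males and 0.216 ± 0.116 CPM in females (SD, n = 3 each; log2 fold change 2.84, edgeR adjusted p = 0.0705, and 0.0334 with the GC content and length offset). None of 16 WNT receptors and co-receptors passed in edgeR with TMM scaling. At an unadjusted p under 0.05 there was 1, Fzd1, and DESeq2 called 0. The edgeR fit with the GC content and length offset called 1, which was not Fzd1 (edgeR adjusted p = 0.0613 there). Fzd1 stood at 135.7, 142.3 and 161.6 CPM in males, against 46.6, 81.5 and 83.7 CPM in females, and its log2 male to female ratio was 1.05 (SE 0.35, 95% interval 0.22 to 1.89, edgeR adjusted p = 0.329).

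The remaining lists also held no call in edgeR, at an unadjusted p under 0.05 or in DESeq2. These were 16 signal transducers, 9 heparan sulfate proteoglycans and the 1 tested relative of the LGR receptors. Tcf7, which encodes a transcription factor of the pathway, averaged 71.4 ± 19.9 CPM in males and 114.6 ± 8.02 CPM in females (SD, n = 3 each; log2 fold change -0.68, edgeR adjusted p = 0.690). Gpc6, a glypican gene, averaged 62.9 ± 31.2 CPM in males and 147.5 ± 61.9 CPM in females (SD, n = 3 each; log2 fold change -1.23, edgeR adjusted p = 0.553), and it passed with the GC content and length offset. Rxfp2, a receptor related to the LGR proteins, came to 0.26 on the log2 scale (SE 0.66, edgeR adjusted p = 1). The medians of the ligand, receptor, transducer and proteoglycan lists were -0.20, -0.16, -0.06 and -0.26.

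**Figure D4:**
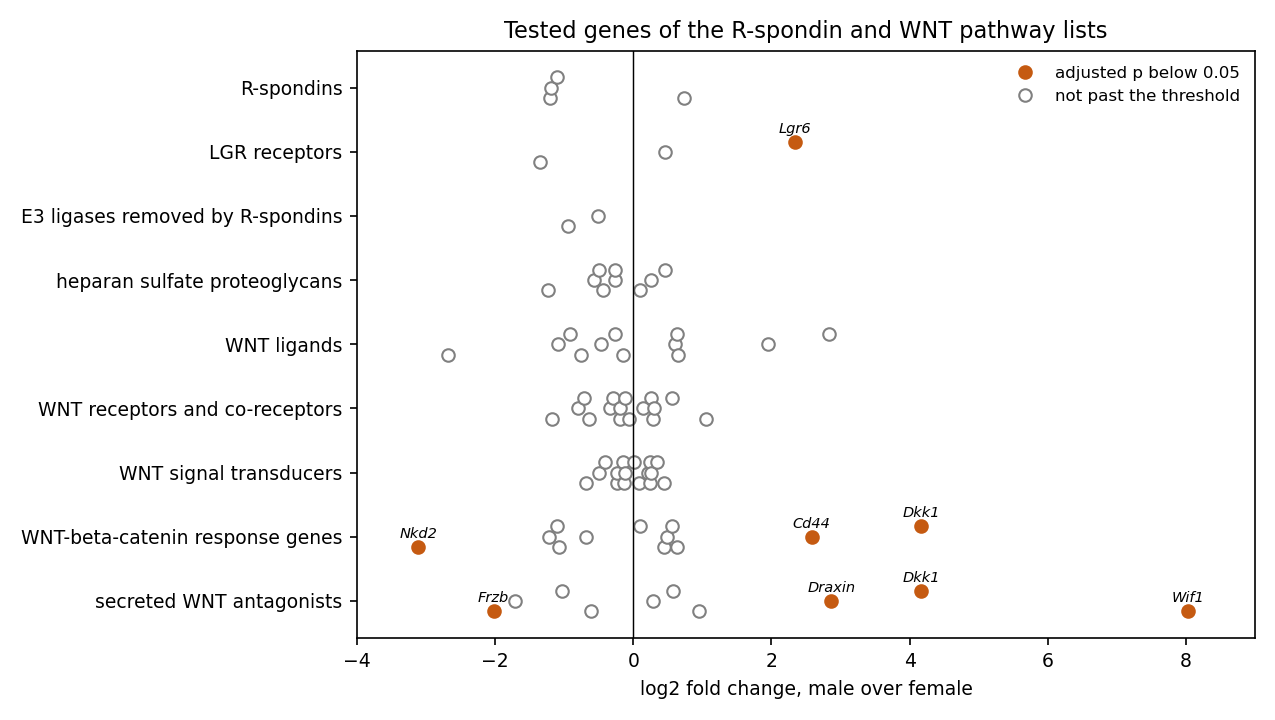
Log2 fold change, male over female (x axis), of each tested gene in the R-spondin, LGR and WNT pathway lists (rows), with filled points past the adjusted p threshold of 0.05 (edgeR) and open points not. Lgr6 at 2.34 is the filled point among the R-spondins and LGR receptors, and the other filled points lie among the response genes and the secreted antagonists.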

How the data were processed

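The deposited values were raw counts per Ensembl gene, which the authors made from paired 76-base reads of TruSeq v2 libraries, per the labels' protocols. The submitters' processing notes name TopHat, HTSeq, DESeq and the build mm9, with no versions. No source used here gives the annotation release or the strand setting. Summary lines that name no gene entered neither library sizes nor tests, and those outside genes or ambiguous held 3.53% to 18.2% and 6.51% to 10.03% of reads. Of 37991 identifiers, 32919 had a symbol in the reference (GENCODE M21, GRCm38), which also gave transcript length and GC content and, with RefSeq, the upstream sequences. mm9 coordinates were not used.

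In R 4.3.3, TMM scaling followed filterByExpr, and edgeR 4.0.16 tested sex as the only term (robust quasi-likelihood test, two-sided), adjusted over all 15227 genes. SEs were derived as |log2 fold change| / √F. For GC content and length, natural splines (5 df each) were fitted per library to log2 CPM (prior count 2) minus the gene's mean, for the 96.4% of tested genes with values. The scripts were tested on simulated data.

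The gene families and the lists were picked for study with earlier results of these data known, and family members were then taken whole, by symbol. Named genes are the members, Znrf3, Rnf43, and per list up to 4 past the threshold or the 1 with the smallest p. For each member the 3 genes of most similar profile are also named, except 1 that is not reported here. Alternatives were other scalings, filters and thresholds, DESeq2 1.42.0, limma-voom (limma 3.58.1), a replicate block, the GC correction and leaving out libraries. Same-numbered male and female libraries deviated together for replicates 1 and 2 (r over genes 0.927 and 0.852) but not 3 (-0.069). Deviations from a mean of 3 libraries cancel out within a sex, so these values cannot decide whether the numbers pair the libraries. The labels do not state a pairing, and sex was kept as the only term.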

Additional observations from a re-analysis of the deposited data

How the results depend on the processing

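The sign of all 7 member fold changes held in all 20 alternative fits (19 for Rspo2 and Rspo4), but for the other 6 genes the size did not. The log2 fold change ran from 2.13 to 2.51 for Lgr6, which passed in 13 of the 20, from -2.21 to -0.86 for Lgr5, 0.10 to 0.83 for Lgr4, -1.50 to -0.64 for Rspo1, -1.76 to -0.68 for Rspo2, 0.09 to 1.57 for Rspo3 and -1.84 to -0.82 for Rspo4. The count of called genes depended on the setting: 187 in the reported fit, 386 at a threshold of 0.10, 771 in DESeq2 and 905 with the GC content and length offset, where 460 were higher and 445 lower in males, against 128 and 59. Leaving out 1 library gave 0 to 173 calls over all genes and 0 to 1 among the 7 (1 only without male replicate 1). Over all genes the count was 0 without male or female replicate 3, where 938 and 884 genes had an unadjusted p under 0.05 in edgeR. With both libraries of replicate 1, 2 or 3 left out, chosen after the data were seen, there were 354, 0 and 0 calls, and 1, 0 and 0 among the 7; in the last 2 fits 1103 and 455 genes had an unadjusted p under 0.05 in edgeR. A replicate block called 4164 genes and 6 of the 7 (Lgr6, Lgr5, Rspo1, Rspo3, Rspo2 and Lgr4). With the GC offset it called 4418 genes and 5 of the 7. Whether same-numbered libraries share a batch is not given. The correlations between these libraries cannot decide it, and sex was kept as the only term of the reported fit. The cause of the higher counts of calls was not tested. Rxfp2 ranged from -0.34 to 0.90 when 1 library was left out, and reversed to -0.34 without male replicate 1 and to -0.10 without female replicate 2; the cause was not tested. With the median transcript length, by construction, levels per kb moved in males and females to 6.63 and 14.3 for Rspo1, 14.5 and 10.6 for Lgr4, 1.23 and 3.14 for Lgr5 and 18.4 and 3.64 for Lgr6. With 19 to 77 counts per sex, Rspo2 and Rspo4 are limited by depth. p-values measure the spread between libraries, which holds differences between pools of embryos and any between library preparations.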

Other observations

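The WNT ligand genes given here were chosen after their values were seen; R-spondins amplify the signal of such ligands. Wnt10a averaged 0.258 ± 0.184 CPM in males and 1.66 ± 0.617 CPM in females (SD, n = 3 each; log2 fold change -2.68, edgeR adjusted p = 0.166), the opposite sign to Wnt10b. Wnt4, which is needed for the duct to form, stood at 256.2, 427.0 and 531.1 CPM in the male libraries, against 74.4, 151.2 and 87.1 CPM in the female libraries (log2 fold change 1.96, edgeR adjusted p = 0.127).

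Wnt16 held 0 counts in all 3 male libraries and 63, 9 and 37 counts in the female libraries. Against a floor of 3 counts over the male group it was at least 35.1-fold lower in males. It did not pass the filter on low counts, and with no filter its edgeR adjusted p was 0.0291.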
